A study of Homo sapiens with 4 samples.

Results

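S100 genes encode small EF-hand proteins that bind calcium, pair up as dimers and then dock onto target proteins such as annexins or heavy chains of myosin. Melanoma is one of the tumours in which the family is best known: S100B is a diagnostic marker of cells of melanocytic and neural crest origin, and S100A4 and S100A6 are often abundant in motile and mesenchymal-like cells. The members described here were listed by name: S100A1, S100A2, S100A4, S100A6, S100A10, S100A11, S100A13, S100A16 and S100B. They are 9 of the 34241 gene identifiers listed in any of the count tables, and all 9 are listed in all 4 tables.

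The cells were A375, a human melanoma line with the BRAF V600E mutation, profiled by droplet-based single-cell RNA-seq with unique molecular identifiers (UMIs), each of which marks 1 captured RNA molecule. Group S was the untreated, drug-sensitive culture. RV cells had been kept on the BRAF inhibitor vemurafenib, RVC cells on vemurafenib with the MEK1/2 inhibitor cobimetinib and RVT cells on vemurafenib with the MEK1/2 inhibitor trametinib, in each case for 10 to 14 days at a fraction of the IC50, with the drugs withdrawn 24 h before capture. All 4 groups share the BRAF mutation and the parental line, and each is 1 culture in 1 library of 10000 loaded cells, so no test between groups was possible and a difference between libraries may be that of the cultures rather than of the drugs.

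After filtering, 6334 S, 4177 RV, 7623 RVC and 8445 RVT cells remained. The tables list 6695 S, 4328 RV, 9266 RVC and 10427 RVT barcodes. For S and RV these are more than the cells the study states, and for RVC and RVT as many. The filter behind the study's numbers is not given in the sources used here. The RVT table lists more barcodes than cells were loaded, so on that loading not every RVT barcode can be a captured cell. Whether the kept barcodes, called cells here, include droplets without a cell was not tested. The kept cells had library totals from 25407545 UMIs (RVT) to 58611860 UMIs (S) and median UMIs per cell from 2871 (RVT) to 11553 (RV). RVC and RVT stood apart from S and RV: they were shallower, were counted against another gene list (33538 against 33694 identifiers), and their log2 ratios to S leaned on the GC content of the 3′ end of the transcript, so that GC-centred values are given where they matter. Pairs of libraries shared 38 to 149 cell barcodes. Of 11 lineage markers, whose other members are given with the cells they mark, SOX10 was at 86.3 CPM in S, 39.9 in RV and 19.4 in RVT and had no UMI in RVC, while the pigment genes PMEL, MLANA, TYR and DCT were at 0.439 CPM or below in every library. PTPRC, CD3E and HBB, which mark blood cells, had no UMI in any library. All intervals below are 95% intervals that cover counting error only. Levels are UMIs of a gene per 1000000 UMIs of the library (CPM), and since each molecule is tagged at its 3′ end they need no scaling for transcript length when genes are compared.

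As proteins the 9 members were between 90 (S100A6) and 105 (S100A11) residues long, from translation of their GENCODE 29 coding sequences. Pairwise identity over the 36 pairs ran from 27% (S100A13 and S100B) to 60.8% (S100A2 and S100A4), with a median of 37.4%, and the pair of S100A1 and S100B came next to the top with 59.8%. A canonical calcium-binding loop in the C-terminal EF-hand was found in 8 members and not in S100A10, which is known to work without calcium as the partner of annexin A2. On chromosome 1 (GRCh38) lie 8 members, in a cluster that reaches from S100A10 at 151982915 to the end of S100A1 at 153632039, and S100B lies on chromosome 21 at 46598962 to 46605208. The cluster span of 1649 kb held 69 listed genes, of which 16 were among the S100 genes looked up here. None of the other 53 had a mean of 10 CPM over the libraries, the highest being SPRR2D at 3.53 CPM. Of them 30 had no UMI at all, among these S100A7L2, a family gene outside the lists.

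Together the 9 genes made up 1.27% of all UMIs in S and 1.91% in RV, then 0.845% in RVC and 0.363% in RVT, or 12677, 19110, 8453 and 3631 CPM. The family total was thus highest in RV and lowest in RVT. S100A6, also called calcyclin, alone contributed 74.2% of this sum in S and 73.9% in RV, with 67.3% in RVC and 44.0% in RVT. It was the 13th most abundant of all genes in S, the 3rd in RV, the 34th in RVC and the 96th in RVT. Without it the other 8 members added up to 3270 CPM in S and 4991 in RV, then 2761 in RVC and 2033 in RVT, so the same order of libraries held with a narrower range.

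**Figure D1:**
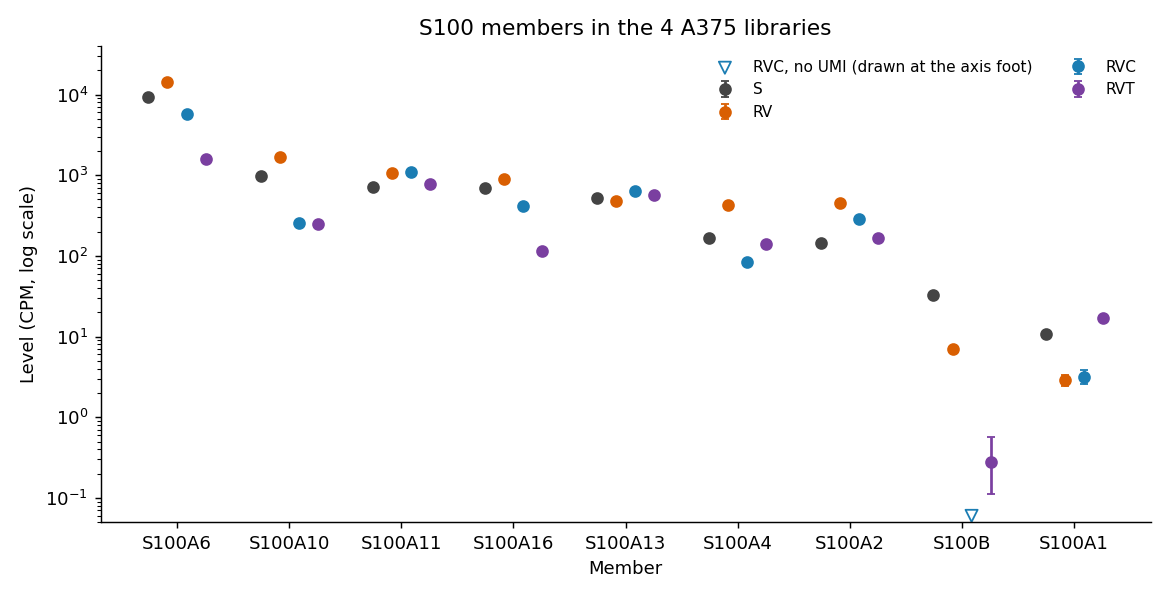
Level of each member in S, RV, RVC and RVT, in CPM on a log axis, with bars for the 95% Poisson interval of the counts (1 library per group, most bars smaller than the points). S100A6 leads in every library, from 14119 CPM in RV to 1598 in RVT, and S100B runs from 32.8 CPM in S to no UMI in RVC, where the open triangle marks a count of 0.

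RV against S asks what differs after vemurafenib alone. In RV 2 members were at least 2-fold higher and 2 were at least 2-fold lower. Of the 6504 genes whose mean over the libraries was 10 CPM or more, 1.89% were at least 2-fold higher and 1.26% at least 2-fold lower in this comparison, and their median log2 ratio was 0.02 against 0.56 for the 9 members. S100A1, at a mean under 10 CPM, is not among those 6504 genes.

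The members that were higher were S100A2 and S100A4, the pair with the most similar proteins. S100A2, a member better known from epithelia, stood at 145 CPM in S and 458 in RV, with 286 in RVC and 165 in RVT. It was 3.15-fold higher in RV than in S (3.08 to 3.23) and 1.97-fold higher in RVC (1.91 to 2.03), just under the 2-fold line. S100A4, also called metastasin, which binds non-muscle myosin, was at 168 CPM in S and 421 in RV, then 84.3 in RVC and 140 in RVT. It was 2.51-fold higher in RV than in S (2.45 to 2.57), but 1.99-fold lower in RVC (1.91 to 2.08) and 1.20-fold lower in RVT (1.15 to 1.25). The RVC value passed 2-fold under 6 of 8 other ways of filtering or scaling, with log2 ratios from -1.21 to -0.82. RV was the highest of the 4 libraries for both genes, and the lowest was S for S100A2 and RVC for S100A4. S100A4 overlaps S100A3 on the same strand, and S100A3 was at 27.1 CPM in S and 24.5 in RV, with 44.1 in RVC and 9.92 in RVT. How reads in the overlap were counted was not tested.

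The promoters of these 2 genes are shown because both genes were at least 2-fold higher in RV. They are the 250 bases before a RefSeq transcription start on the minus strand of chromosome 1 (GRCh38.p14), written 5′ to 3′ along the gene, S100A2 from chr1:153565845-153566094 (the first of its 2 entries) and S100A4 from chr1:153545807-153546056. Capitals mark matches to the motifs that were searched on both strands. The motif TGANTCA is that of AP-1 factors and TATAAA is the TATA box, while GGAATG is bound by TEAD factors, ACAAAG by SOX factors and CACGTG, the E-box, by factors such as MITF.
S100A2: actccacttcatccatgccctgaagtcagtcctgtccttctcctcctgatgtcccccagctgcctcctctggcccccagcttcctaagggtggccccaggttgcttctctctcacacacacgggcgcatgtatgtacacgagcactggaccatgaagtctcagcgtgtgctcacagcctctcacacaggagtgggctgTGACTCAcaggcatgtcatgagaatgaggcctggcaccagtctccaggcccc
S100A4: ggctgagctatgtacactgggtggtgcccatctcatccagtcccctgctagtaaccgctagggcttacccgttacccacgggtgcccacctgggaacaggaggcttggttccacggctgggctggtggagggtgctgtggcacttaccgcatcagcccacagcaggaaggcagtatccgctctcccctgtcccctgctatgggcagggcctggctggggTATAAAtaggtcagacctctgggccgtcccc
The S100A2 sequence holds an AP-1 match that begins 52 bases before the start, as 6.57% of the 35116 promoter windows of the table do. The S100A4 sequence holds TATAAA from 31 bases before the start, which 10.7% of all windows hold somewhere in their 250 bases. No match to the SOX or E-box letters was found in the windows of the 8 members with an entry, against 13.7% and 6.34% of all windows.

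The members that were lower in RV were S100A1 and S100B, the pair with the next most similar proteins. S100B stood at 32.8 CPM in S (1923 UMIs) and 6.97 in RV (365 UMIs), with 0 UMIs in RVC and 7 UMIs, or 0.276 CPM, in RVT. It was 4.71-fold lower in RV than in S (4.21 to 5.28). S100A1, which is best known from heart and skeletal muscle but is also found in melanocytic cells, was at 10.7 CPM in S and 2.88 in RV, then 3.18 in RVC and 16.8 in RVT, and was 3.70-fold lower in RV (3.09 to 4.45). The intervals of RV (2.44 to 3.38) and RVC (2.60 to 3.86) overlapped, so S100A1 could not be ordered between these libraries. S100A1 overlaps S100A13 on the opposite strand, and counting by strand keeps them apart only if the authors' counting used it, which is not given in the sources used here.

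The remaining members differed less between RV and S. S100A10, the light chain of the annexin A2 tetramer at the cell surface, was at 989 CPM in S and 1669 in RV, a 1.69-fold difference (1.67 to 1.71). S100A6 went from 9408 to 14119 CPM, 1.501-fold (1.496 to 1.506), and S100A11, another annexin partner, from 714 to 1052 CPM, 1.47-fold (1.46 to 1.49). S100A16, a widely expressed member, was at 693 CPM in S and 896 in RV, and S100A13, which helps FGF1 and IL1A leave the cell without a signal peptide, at 517 and 485 CPM. For these 5 genes RV was within 2-fold of S.

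**Figure D2:**
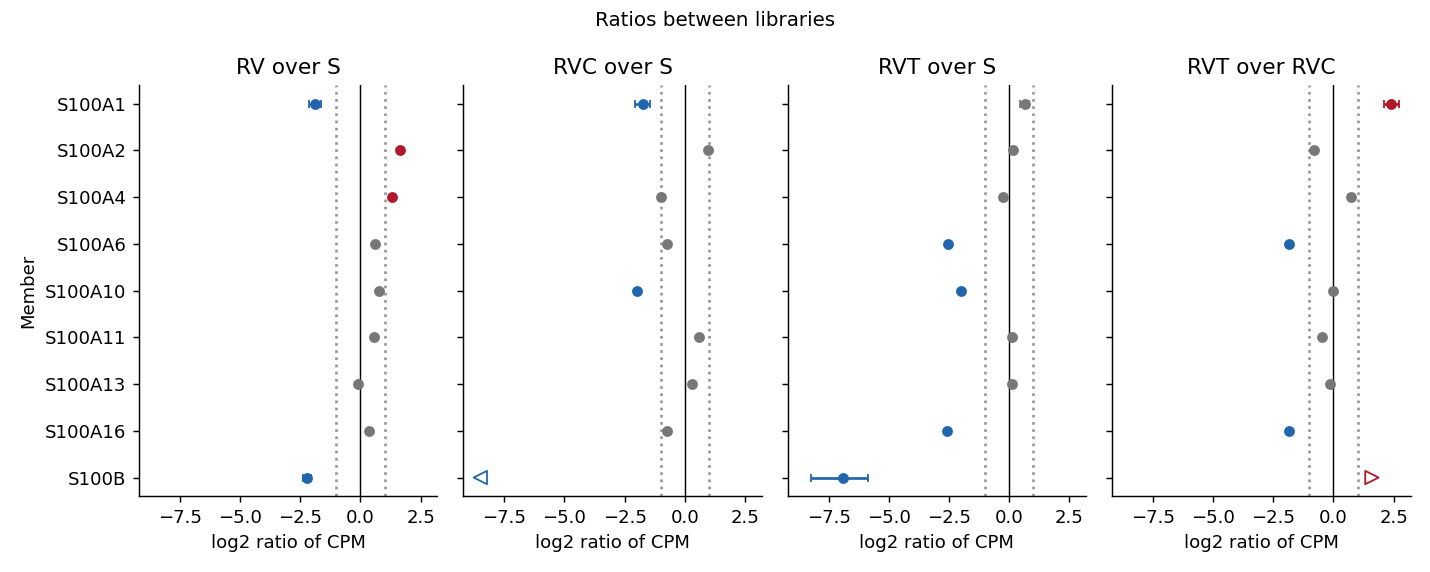
log2 ratio of CPM of each member in RV over S, RVC over S, RVT over S and RVT over RVC, with bars for the 95% interval of the counts and dotted lines at 2-fold in either direction. Red and blue points lie past 2-fold, higher and lower. Open triangles mark S100B ratios that take RVC at 3 UMIs because it had no UMI. S100A6 and S100A16 sit nearly side by side in all 4 panels, at -2.56 and -2.58 for RVT over S.

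RVC and RVT against S ask what differs after BRAF and MEK inhibition together. In RVC no member was at least 2-fold higher and 3 were at least 2-fold lower (S100A1, S100A10, S100B), where 22.5% of all genes were at least 2-fold higher and 23.2% lower. In RVT no member was at least 2-fold higher and 4 were at least 2-fold lower (S100A6, S100A10, S100A16, S100B), where 28.6% of all genes were higher and 24.3% lower by that measure. The median log2 ratio of the members was -0.73 in RVC and -0.26 in RVT, against 0.16 and 0.21 for all genes. In these comparisons a 2-fold difference is common, so the counts of members say little beyond the genes themselves.

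S100A10 was low in both double-treated cultures. It stood at 989 CPM in S and 1669 in RV, then at 252 in RVC and 250 in RVT. It was 3.92-fold lower in RVC (3.83 to 4.01) and 3.96-fold lower in RVT (3.86 to 4.07) than in S. On this scale RVC and RVT could not be told apart, with a ratio of 0.988 (0.956 to 1.02). Under other ways of filtering or scaling the log2 ratio of RVT over RVC ran from -0.32 to 0.094, so its direction depends on the scale. Centred on genes of like GC content, the log2 ratios to S were -2.31 in RVC and -2.43 in RVT, against -1.97 and -1.99 as measured. Annexin A2, its obligate partner, named here for that role after its values were seen, was within 2-fold in every comparison: ANXA2 was at 682 CPM in S and 939 in RV, with 706 in RVC and 680 in RVT.

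S100A6 and S100A16 were lowest in RVT. S100A6 went from 9408 CPM in S to 5692 in RVC and 1598 in RVT, which is 1.65-fold (1.64 to 1.66) and 5.89-fold lower (5.83 to 5.95). S100A16 went from 693 CPM in S to 419 in RVC and 116 in RVT, which is 1.65-fold (1.62 to 1.69) and 5.997-fold lower (5.78 to 6.23). Against RVC, RVT was 3.56-fold lower for S100A6 (3.53 to 3.60) and 3.63-fold lower for S100A16 (3.49 to 3.78). Centred on GC, the log2 ratios of RVT over S were -1.77 for S100A6 and -2.14 for S100A16, against -2.56 and -2.58 as measured. Those of RVC over S were -0.31 for S100A6 and -0.43 for S100A16, against -0.725 for both as measured.

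Among 2847 genes that reached 50 CPM in any library, the 3 nearest to S100A6 in the log2 ratios of RV, RVC and RVT to S were JPT1, at a Euclidean distance of 0.208, S100A16, at 0.217, and UBE2C, a mitotic ubiquitin-conjugating enzyme, at 0.329. S100A16 had JPT1 (0.1003), S100A6 (0.217) and CENPX (0.280) as its nearest genes. Over all 36 pairs of members S100A6 and S100A16 were the closest, followed by S100A11 and S100A13 at 0.727. With GC-centred ratios these 2 pairs were again the closest, at 0.431 and 0.759. These are distances over 4 libraries that share S as reference, and they describe these libraries only.

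The promoters of S100A6 and S100A16 are shown because the log2 ratios of these 2 genes to S ran so close. They are again the 250 bases before a RefSeq start on the minus strand of chromosome 1 (GRCh38.p14), S100A6 from chr1:153535992-153536241 and S100A16 from chr1:153613138-153613387 (the first of its 2 entries), with capitals as above.
S100A6: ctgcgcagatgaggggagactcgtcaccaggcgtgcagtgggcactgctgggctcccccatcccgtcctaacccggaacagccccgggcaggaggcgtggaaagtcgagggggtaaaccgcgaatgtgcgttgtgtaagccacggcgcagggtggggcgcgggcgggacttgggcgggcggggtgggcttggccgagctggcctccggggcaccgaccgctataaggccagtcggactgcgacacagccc
S100A16: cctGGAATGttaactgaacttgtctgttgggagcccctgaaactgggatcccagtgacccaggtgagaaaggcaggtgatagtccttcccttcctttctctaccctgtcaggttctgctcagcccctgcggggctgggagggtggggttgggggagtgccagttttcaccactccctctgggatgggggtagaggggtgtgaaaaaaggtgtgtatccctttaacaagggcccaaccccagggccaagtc
None of the 5 motifs was found letter for letter in the S100A6 window, whose GC content was 70%. The letters tataag near its end differ from TATAAA in the last position and were not counted as a match. The S100A16 window had a GC content of 57.2% and held 1 TEAD match that begins 247 bases before the start, which 11.9% of all windows hold. The 2 windows thus shared no match to the letters searched.

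S100B was almost absent from both double-treated libraries. No UMI was found in 7623 RVC cells, which allows a share of cells with a UMI of up to 0.0394% if 3 cells are taken in place of 0 (the exact 95% upper limit is 0.0484%), and 7 UMIs were found in 7 of 8445 RVT cells. Taking RVC at 3 UMIs for the library, S100B was 361-fold lower in RVC than in S, with an interval from 293-fold. That log2 ratio was -8.49, and -7.06 with thinned cells. In RVT S100B was 119-fold lower than in S (57.7 to 297), a log2 ratio of -6.90 that was -7.51 with a minimum of 1000 genes per barcode. With RVC again taken at 3 UMIs, RVT was 3.03-fold higher than RVC, a value that rests on 7 against 0 UMIs. Its interval begins at 1.87-fold, which is under 2-fold. The gene nearest to S100B in its ratios to S was ERBB3, a neural crest receptor kinase, at a distance of 0.758, with 65.8 CPM in S and 13.9 in RV, then 0.303 in RVC and 0.630 in RVT.

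S100A1 parted from S100B in RVT. It was 3.35-fold lower in RVC than in S (2.72 to 4.16), but 1.57-fold higher in RVT (1.39 to 1.78) and 5.26-fold higher in RVT than in RVC (4.24 to 6.58). Its 3′ end is GC-rich, at 57.8% over the last 500 bases, and genes of like GC had median log2 ratios to S of -1.36 in RVC and -1.70 in RVT. Centred on them, the S100A1 ratios were -0.38 in RVC, no longer past 2-fold, and 2.35 in RVT, now past it. The 2-fold calls thus changed with the centring, while RVC stayed below and RVT above S. With TMM scaling the log2 ratio of RVT over S was 0.136, against 0.65 as measured.

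S100A11 and S100A13 varied least. S100A11 lay between 714 CPM in S and 1085 in RVC, with 1052 in RV and 781 in RVT, and S100A13 between 485 CPM in RV and 632 in RVC, with 517 in S and 566 in RVT. Neither was 2-fold different in any comparison. With TMM scaling, which moved all log2 ratios of RVT over S down by 0.517, S100A2, S100A11 and S100A13 turned from 0.18, 0.13 and 0.13 to -0.34, -0.39 and -0.39, so their direction in RVT depends on the scale.

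Between the double-treated cultures, RVT against RVC, 2 members were at least 2-fold higher in RVT (S100A1 and S100B). Another 2 were at least 2-fold lower (S100A6 and S100A16). Of the genes with a mean of 10 CPM or more, 15.1% were higher and 11.8% lower by that measure. S100A1 is not among those genes. Of all genes above 3 UMIs, 26.2% were higher and 14.7% lower. The S100B call, with RVC taken at 3 UMIs and an interval that begins at 1.87-fold, was kept under 6 of 8 other ways of filtering or scaling. S100A4 was 1.66-fold higher in RVT (1.58 to 1.75) and S100A2 1.74-fold lower (1.67 to 1.80), a value that passed 2-fold with TMM scaling (log2 ratio -1.10). The median log2 ratio was -0.16 for the members and 0.15 for all genes.

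Because the libraries differed in depth, shares of cells with a UMI are compared after 1500 UMIs were drawn from each cell. Left out as shallower were 397 RVC and 845 RVT cells, and none of S or RV. S100A6 was then found in 99.9% of S and RV cells, 99.3% of RVC cells and 84.3% of RVT cells (at full depth in 100% of S and RV, 99.7% of RVC and 92.1% of RVT cells). S100A10 was found in 73.7% of S, 90.4% of RV, 30.7% of RVC and 29.6% of RVT cells, against 99.2%, 99.98%, 60.1% and 47.2% at full depth. S100A2 was found in 16.5% of S, 41.7% of RV, 29.4% of RVC and 19.2% of RVT cells, and S100A4 in 21.0%, 40.9%, 11.2% and 18.2%. S100A16 was found in 62.7% of S, 71.6% of RV, 46.1% of RVC and 16.6% of RVT cells. S100B was rare even in S, with a UMI in 4.94% of thinned cells (20.04% at full depth, median 8807.5 UMIs) against 1.34% in RV (5.51% at full depth). RNA free in the droplets can put single UMIs into cells that do not express a gene, and the cultures held no cells known to lack the family in which it could be measured.

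S100A6 varied between cells of 1 culture far more than counting alone gives. Of 1500 UMIs, the median cell held 13 S100A6 UMIs in S and 20 in RV, with 8 in RVC and 2 in RVT, and the range from the 10th to the 90th percentile was 6 to 26, 10 to 37, 3 to 15 and 0 to 5. Its Fano factor, the variance over the mean, was 4.48 in S and 5.05 in RV, then 2.62 in RVC and 1.87 in RVT, where the median gene with a UMI in at least 10% of cells stood at 1.03 to 1.04 and the 95th percentile at 1.30 to 1.58. The Fano factor grows with the level of a gene, so it does not rank genes or libraries of unlike level. The variance beyond counting over the squared mean was 0.183 for S100A6 in RV but 1.03 for S100A2 and 1.04 for S100A4. For S100A6 it was 0.236 in S, 0.193 in RVC and 0.359 in RVT, so by this measure RVT was highest and RV lowest. A cell held UMIs of 4 of the 9 members in the median in S and RVC, of 5 in RV and of 3 in RVT, and no member at all in 0 S, 0 RV, 5 RVC and 117 RVT cells.

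**Figure D3:**
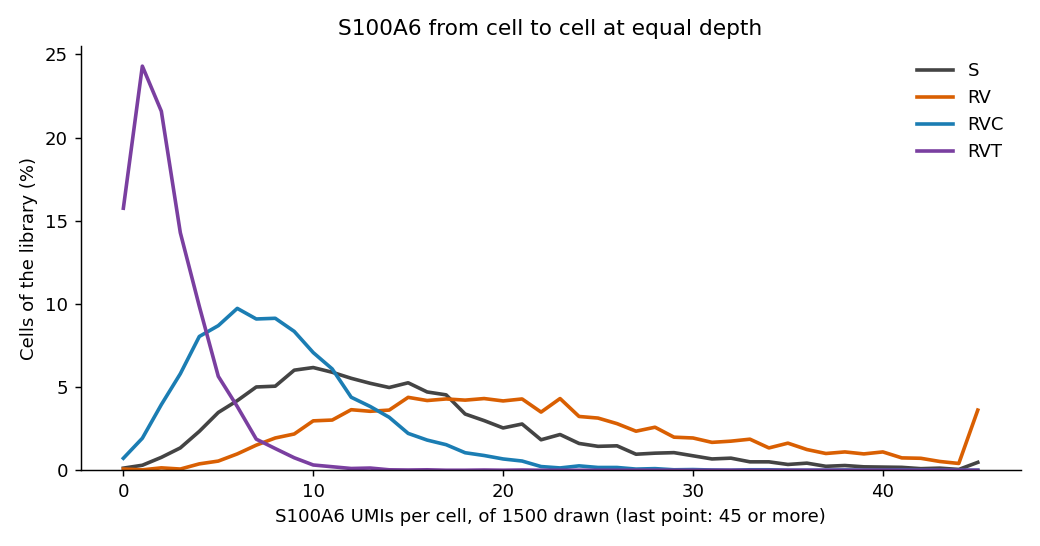
Share of cells of each library, in percent, by the number of S100A6 UMIs among 1500 drawn per cell. The RVT curve is pressed against 0 with 15.8% of cells at 0 UMIs, while the RV curve is broad with a median of 20.

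Whether the members are high in the same cells was read from the Pearson correlation of log2(UMIs + 1) across thinned cells, given as a description over 6334 S, 4177 RV, 7226 RVC and 7600 RVT cells that share library and depth. For the 21 pairs of the 7 members with a UMI in at least 10% of cells of each library the median was 0.046 in S and 0.077 in RV, with 0.022 in RVC and 0.029 in RVT, where the median pair of genes stood between 0.001 and 0.002. Above the 95th percentile of all gene pairs lay 15 of the 21 pairs in S and 15 in RV, with 7 in RVC and 10 in RVT. The highest pair of each library held S100A6. In S they were S100A6 with S100A10 (0.220) and S100A13 (0.192), in RV with S100A4 (0.251) and S100A13 (0.232), in RVC with S100A13 (0.179) and S100A11 (0.178), and in RVT with S100A11 (0.183), where S100A10 with S100A11 (0.106) came next. S100A6 and S100A16, the closest pair across libraries, reached 0.158 in S and 0.142 in RV, but stood at 0.045 in RVC and 0.010 in RVT. S100A2 stood between -0.057 and 0.094 with every other member, the highest being S100A10 in RV. All these correlations are weak, and in counts this sparse they are given as values only. S100A6 had the most UMIs per cell of the members, and neither the pairs nor the percentile of all gene pairs were matched for level. Whether the lead of its pairs, or the low value of S100A6 and S100A16 in RVT, goes with level was not tested.

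**Figure D4:**
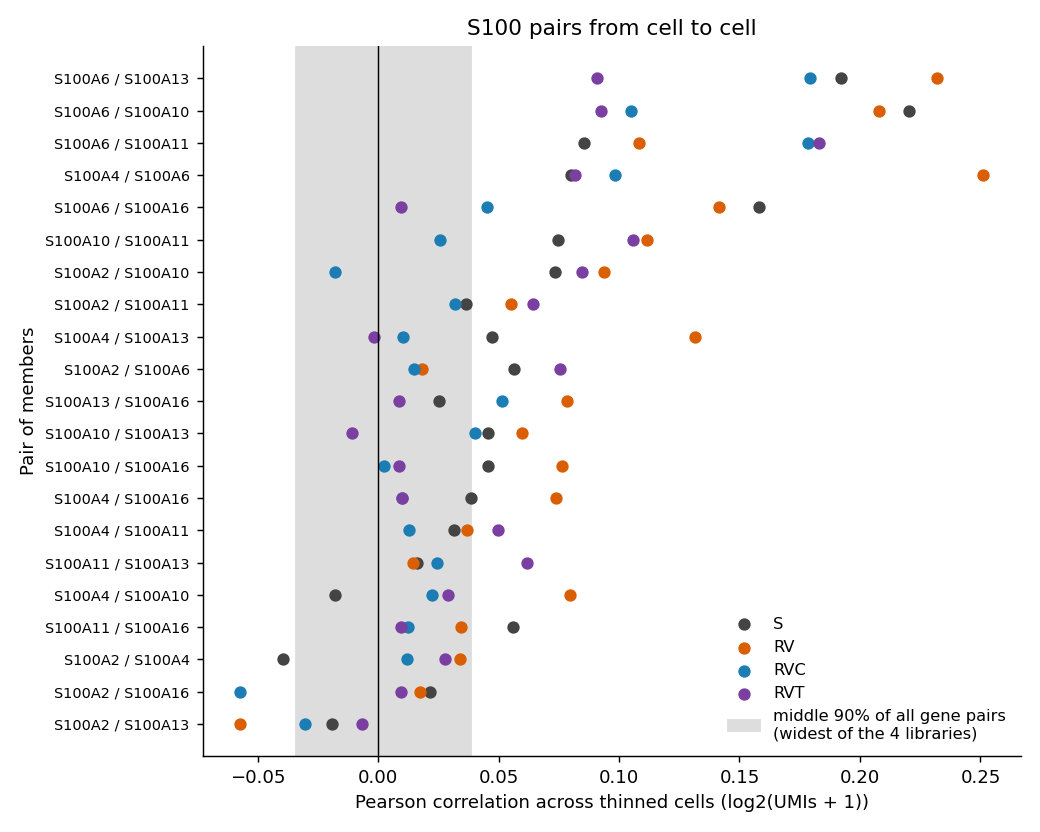
Pearson correlation across thinned cells of each of the 21 pairs of members, by library, with the middle 90% of all gene pairs in grey, at its widest over the 4 libraries. The point farthest to the right in each library is a pair with S100A6, up to 0.251 for S100A4 and S100A6 in RV. Of the 15 pairs without S100A6, 9 in S and 10 in RV, with 2 in RVC and 5 in RVT, lie above the 95th percentile of their own library. The band ends at 0.0386, that of RVC, and some of these S and RV pairs lie inside it.

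The gene most like S100A6 across cells was LGALS1, the galectin-1 gene, in S (0.379) and RV (0.387), followed by CD63 (0.266) and SH3BGRL3 (0.255) in S and by the nuclear long noncoding RNA NEAT1 (0.357) and SH3BGRL3 (0.263) in RV. In RVC it was GAPDH (0.355), then LGALS1 (0.232) and TMSB10 (0.212), and in RVT MYL6 (0.204), then S100A11 (0.183) and TIMP1 (0.174). S100A2 was most like KRT81 (0.228), SPANXB1 (0.168) and KRT7 (0.140) in S. S100A4 was most like S100A6 (0.251), LGALS1 (0.205) and SPARC (0.181) in RV. At the other end, HIST1H4C, a replication-dependent histone gene named after its values were seen, was the least like S100A6 in S (-0.337) and RV (-0.375).

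Cells with UMIs of mitotic genes held less S100A6. In S cells with at least 2 of the 10 mitosis markers it stood at 7548 CPM against 10728 in cells with none, in RV at 11492 against 16711, in RVC at 5029 against 6397 and in RVT at 1344 against 1625. S100A4 followed the same direction in 3 libraries, at 103 against 204 CPM in S, 295 against 561 in RV and 69.8 against 111 in RVC, but not in RVT, at 151 against 137. In S, the intervals of marked and unmarked cells overlapped for S100A10, at 1020 against 1018 CPM, and for S100A11, at 693 against 717 CPM. S100A10 was lower in marked cells in RV, at 1574 against 1777.5 CPM, and in RVC, at 229 against 281 CPM, as was S100A11 in RVC, at 1043 against 1131 CPM. In RVT these 2 members were higher in marked cells, at 389 against 237 CPM and 1089 against 749 CPM. Within cells without mitosis markers RVT was 6.60-fold lower than S for S100A6 (6.49 to 6.72), and within cells with at least 2 it was 5.61-fold lower (5.24 to 6.03), so the difference between libraries was present in both.

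In S and RV, S100B and S100A1 were concentrated in the cells that carried neural crest and melanocyte lineage markers, a list without S100B. The list did not behave as 1 unit: beside SOX10, RAMP1 was at 106 CPM in S and 41.8 in RV, then 2.24 in RVC and 1.85 in RVT, while CD74, of MHC class II antigen presentation, was at 808 CPM in S and 257 in RV, then 162 in RVC and 516 in RVT. HLA-DRA, of the same system, was at 111 CPM in S and 27.0 in RV, then 12.98 in RVC and 84.7 in RVT. MITF, the melanocyte master regulator, was at 9.78 CPM in S and 20.2 in RV, then 8.13 in RVC and 41.3 in RVT, and NGFR at 1.09 CPM in S and 11.3 in RV, then 0.455 in RVC and 0.0394 in RVT. Marked cells of different libraries thus need not carry the same markers. In S, cells with at least 2 of 11 such markers made up 30.3% of thinned cells, and S100B stood at 71.6 CPM in them (62.1 to 82.0) against 6.58 in cells with none (4.12 to 9.96). S100A1 stood at 19.8 CPM (15.0 to 25.7) against 3.59 (1.85 to 6.27). S100A2 ran the other way, at 85.1 CPM in marked and 177 in unmarked S cells. S100A13 was at 658 and 452 CPM, and S100A4 at 201 and 138 CPM.

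In RV such cells made up 9.77% of thinned cells, in RVC 0.969% and in RVT 11.2%. Inside the marked cells S100A1 did not differ detectably between RV and S, at 19.6 and 19.8 CPM (ratio 0.990, 0.484 to 1.87, on 12 and 57 UMIs), whereas in all cells RV had been 3.70-fold lower. In unmarked cells S100A1 was lower in RV, at 0.502 against 3.59 CPM (7.15-fold, 1.59 to 65.8), on 2 and 12 UMIs. S100B was 1.62-fold lower in marked RV than in marked S cells (1.08 to 2.52), at 44.1 against 71.6 CPM, and in unmarked cells the interval of its ratio, 0.572 (0.276 to 1.15), included 1. S100A4 was higher in RV both in marked cells, at 742 against 201 CPM (3.68-fold, 3.25 to 4.17), and in unmarked cells, at 372 against 138 CPM (2.69-fold, 2.42 to 2.99). S100A2 was higher in RV in marked cells, at 415 against 85.1 CPM (4.88-fold, 4.08 to 5.84), and in unmarked cells, at 437 against 177 CPM (2.47-fold, 2.25 to 2.71). Both members that were lower in RV were thus concentrated in a class of cells with a smaller share in RV, and both that were higher were so in cells with and without the markers. What part the share of that class has in the library levels was not tested.

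**Figure D5:**
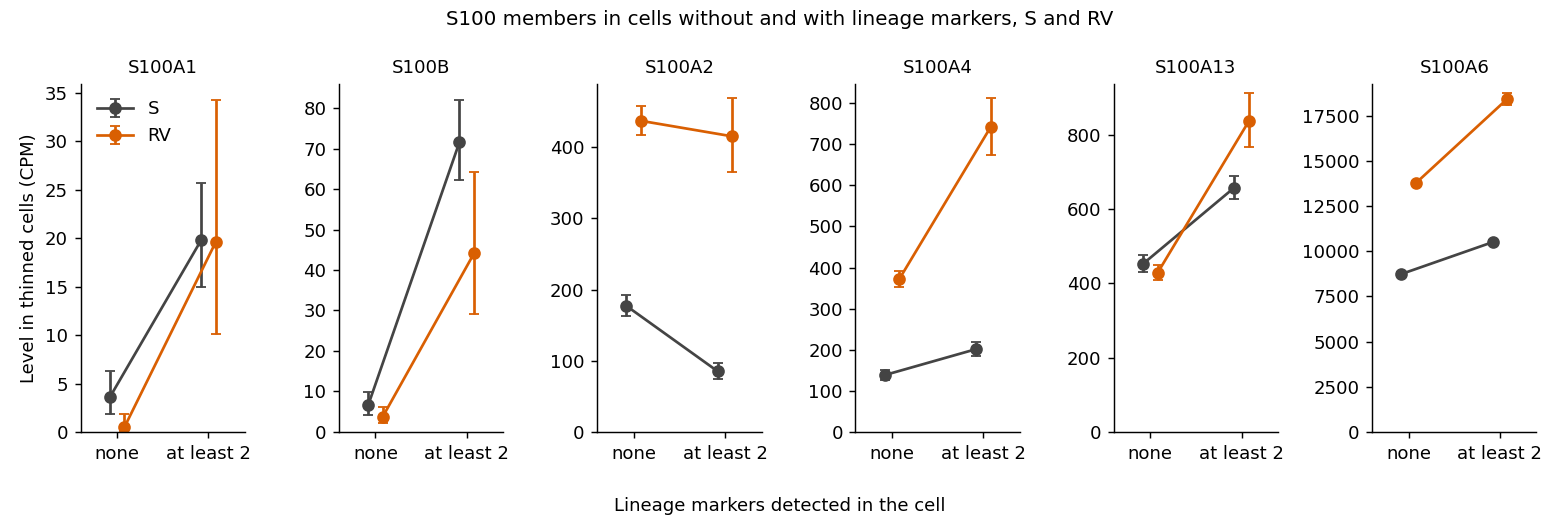
Level of S100A1, S100B, S100A2, S100A4, S100A13 and S100A6 in thinned cells of S and RV, in CPM on linear axes from 0, in cells with none and with at least 2 of the lineage markers. Bars are 95% Poisson intervals. S100A1 and S100B are higher in marked cells of both libraries, reaching 19.8 and 71.6 CPM in S, while the RV line lies above the S line throughout for S100A2, S100A4 and S100A6.

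In thinned RVT cells with at least 2 genes of the lineage list S100A1 stood at 18.1 CPM (11.5 to 27.1, 23 UMIs). In unmarked ones it stood at 15.6 (12.3 to 19.6, 74 UMIs), and these intervals overlapped. In RVT the list was led by CD74 (516 CPM), HLA-DRA (84.7), MITF (41.3) and SOX10 (19.4), with RAMP1 at 1.85 and ERBB3 at 0.630. Which of them the marked RVT cells carried was not examined, so these cells need not match the marked cells of S. In RVC the 70 marked cells held 0 UMIs of S100A1, with an interval of 0 to 35.1 CPM. The 5576 unmarked RVC cells held 29, at 3.47 CPM (2.32 to 4.98), so these intervals overlapped as well. In RVT, S100A1 UMIs were scarce in cells with at least 2 mitosis markers, at 1.58 CPM (1 UMI in 423 cells). Cells with none stood at 18.8 CPM (180 UMIs). Keratin-state markers (KRT81, KRT18, KRT8 and SPANXB1) split S in another way. S cells with at least 2 of them held S100A2 at 208 CPM against 68.2 in cells with none and S100A10 at 1131 against 836 CPM, while S100B stood at 15.7 against 56.0 and S100A1 at 3.99 against 19.0 CPM.

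The other S100 genes that were looked up numbered 11, with 6 or 7 above 3 UMIs in a comparison. Of these, 3 were at least 2-fold higher and 0 lower in RV than in S, 3 and 1 in RVC, and 3 and 3 in RVT. Of all genes above 3 UMIs, 8.8% were at least 2-fold higher and 7.04% lower in RV, 26.3% and 23.7% in RVC, and 35.8% and 21.9% in RVT. Several of these calls rest on few UMIs, such as S100A8 with 47 in RVT against 1 in S and S100A9 with 74 in RV against 1 in S. S100A3 was the only one to reach 10 CPM in any library, at 44.1 CPM in RVC and 9.92 in RVT. S100P went from 7.75 CPM in S and 3.99 in RV to 0.182 in RVC and 2.79 in RVT. S100A8 and S100A9, the calprotectin genes of myeloid cells, stayed at 1.85 CPM or below, and S100A7A and S100G had no UMI in any library.

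Among 32 genes for binding partners and targets of S100 proteins, 2 were at least 2-fold higher and 2 lower in RV than in S, 8 and 4 in RVC, and 10 and 6 in RVT, of 30 genes above 3 UMIs in each comparison. These counts are to be read against the shares of all genes above 3 UMIs given for the other S100 genes, and nothing particular to the partners is read from them. In RV the gene named by size was PLAT, tissue plasminogen activator, whose activity S100A10 promotes at the cell surface, at 50.1 CPM against 17.6 in S. AHNAK, the giant scaffold that binds S100A10 and annexin A2, was at 56.7 CPM in S, 168 in RVC and 293 in RVT. MYH9, the non-muscle myosin heavy chain bound by S100A4, was at 23.7 CPM in S and 77.0 in RVC. CACYBP, the calcyclin-binding protein and thus a partner of S100A6, was at 264 CPM in S and 56.2 in RVT, a log2 ratio of -2.23. Of the 3 cell surface receptors, BSG was at 260 CPM in S and 285 in RV, then 36.7 in RVC and 40.5 in RVT, TLR4 at 5.36, 5.36, 3.37 and 17.4 CPM, and AGER, the receptor RAGE, at 0.649 CPM or below throughout.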

How the data were processed

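Single-cell RNA-seq of 4 A375 cultures (S, RV, RVC, RVT) was analysed, 1 library per culture. The authors deposited 1 table of raw UMI counts per gene and barcode for each library. Per the submitters' processing notes they used bcl2fastq 2.20.0.422, Cell Ranger and the build GRCh38; the Cell Ranger version and the gene annotation are not given in the sources used here. Gene symbols and positions were taken from GENCODE 29, and promoters from RefSeq (GRCh38.p14), which held 8 of the 9 members.

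Barcodes with at least 500 genes and at most 20% mitochondrial UMIs were kept. Those with the highest scrublet scores (scanpy 1.11.5, 0.8% per 1000 barcodes) were removed, since the tool itself called 0 to 5 doublets per library. UMIs were summed per library and divided by the library total (CPM). Ratios carry exact conditional intervals, levels exact Poisson intervals and shares exact Clopper-Pearson intervals, and a count of 0 was taken at 3 UMIs in a ratio. With 1 library per group no test was run, and 2-fold was the size named as different. For shares, spread and correlations 1500 UMIs were drawn per cell. GC content was taken over the last 500 bases of the longest transcript, in 20 bins of 6504 genes. Promoter motifs were searched in the 250 bases before the start. Ratios, intervals and GC centring were checked on simulated counts.

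By the rule for named genes all 9 members were described. From lists of the other S100 genes, partners and targets, receptors and other EF-hand genes, those of at least 50 CPM in the higher library that differed at least 2-fold could be named, at most 6 per comparison by size. The other S100 genes and receptors below that level were named outside this rule, after their values were seen. The 3 genes most like a member across cells or libraries could be named too. Some genes of these lists are counted but their values are not reported here. Marker lists covered the melanoma and neural crest lineage, dedifferentiated melanoma, mitosis, the keratin state and other cells. Members and lists were chosen with earlier results of these data known. Alternatives changed the barcodes, the minimum of genes, the doublet step, the library total, the weight of cells, the depth and the scale (TMM, edgeR 4.0.16).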

Additional observations from a re-analysis of the deposited data

Results flagged for a closer look

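Of the 9 members, 5 had ratios to S on both sides of 1 among RV, RVC and RVT, counting ratios whose intervals excluded 1, and at least 1 such ratio past 2-fold. Each group was 1 library, and the difference between the ratios was not tested. The share of all genes that meet these conditions was not computed, so nothing particular to the members is read from the count. S100A1 had log2 ratios to S of -1.89 for RV, -1.74 for RVC and 0.65 for RVT. S100A4 had log2 ratios of 1.33 for RV, -0.99 for RVC and -0.26 for RVT. S100A6 stood at 0.59 for RV, -0.725 for RVC and -2.56 for RVT. S100A10 stood at 0.75 for RV, -1.97 for RVC and -1.99 for RVT. S100A16 stood at 0.37 for RV, -0.73 for RVC and -2.58 for RVT. The other 4 members did not meet both conditions on this scale. With TMM scaling S100A2 stood at -0.34 for RVT and stayed past 2-fold higher for RV, and would be a further one. S100A1 stood at 0.136 for RVT on that scale. With its counting interval shifted by the same factor, that interval would include 1, and S100A1 would leave the 5.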

How the results depend on the processing

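The number of members at least 2-fold different stayed within 1.5 times of the reported count in 61 of 64 recomputed values. The others were the count higher in RVT than in S, which was 1 (S100A1) with GC-centred ratios and 0 as reported, and the count higher in RVT than in RVC, which was 1 with a minimum of 1000 genes per barcode and 1 with thinned cells, against 2 as reported, because S100B was then at or under 3 UMIs in both libraries. In RVC against S, S100A4 joined the members past 2-fold under 6 of 8 alternatives and S100A1 left them with GC-centred ratios, and S100A2 passed 2-fold in RVT over RVC with TMM (-1.10). Leaving out the S100B ratios that take RVC at 3 UMIs, 4 of 272 recomputed log2 ratios changed sign, each of them within 2-fold. With TMM scaling these were S100A2 (-0.34), S100A11 (-0.39) and S100A13 (-0.39) in RVT over S. With totals without ribosomal protein and mitochondrial genes it was S100A10 in RVT over RVC (0.094). TMM moved the log2 ratios of RVC over S by -0.214 and those of RVT over S by -0.517. With all genes above 3 UMIs, 8.8% were at least 2-fold higher and 7.04% lower in RV over S, against 1.89% and 1.26%, and 26.2% higher in RVT over RVC, against 15.1%. With genes of at least 50 CPM, 17.8% were lower in RVT over RVC, against 11.8%. With TMM the binding partners past 2-fold became 5 higher in RVC over S (8 as reported), 4 higher in RVT over S (10) and 10 lower in RVT over RVC (6), and 1 other S100 gene was lower in RV over S (0). Outside the counting interval of the reported value lay 126 recomputed log2 ratios (160 inside), 81 levels (135 inside) and 66 shares of cells (6 inside), the last because thinning lowers them, and 16 correlations lay outside their sampling interval (236 inside).

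The cultures were not replicated, so culture, drug, depth and gene list cannot be told apart, and intervals cover counting error only. S100A1 and S100B in lineage-marked cells of S and RV rest on 12 to 206 UMIs. No paired analysis was possible because each group held 1 library.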

Other observations

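Other calcium-binding EF-hand genes were looked up in the same libraries. Of 14, 1 was at least 2-fold higher and 0 were lower in RV than in S, 2 and 3 in RVC, and 3 and 3 in RVT. Of the 6504 genes with a mean of 10 CPM or more these shares were 1.89% and 1.26% in RV, 22.5% and 23.2% in RVC, and 28.6% and 24.3% in RVT, and nothing particular to the list is read from its counts. CAPN2, a calpain subunit, was the one in RV, at 111 CPM against 54.3 in S. CALM2 was at 449 CPM in S and 848 in RV, then 1359 in RVC and 722 in RVT. PDCD6 was at 165 CPM in S and 44.9 in RVC, NUCB1 at 51.4 CPM in S and 14.0 in RVC, and RCN2, a calcium-binding protein of the endoplasmic reticulum, at 21.0 CPM in S and 76.0 in RVT. NCL, the nucleolin gene from the list of binding partners, was at 809 CPM in RVC and 160 in RVT.

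Cells were also split by markers of dedifferentiated melanoma (AXL, EGFR, NT5E, FOSL1, TNC and CYR61). In S cells with at least 2 of them S100A2 stood at 197 CPM against 117 in cells with none, and S100A13 at 408 against 597 CPM. S100A2 stood at 481 against 407 CPM in RV, 317 against 262 in RVC and 189 against 163 in RVT. S100A13 stood at 394 against 582 CPM in RV, 550 against 624 in RVC and 584 against 571 in RVT. In RVC and RVT the intervals of marked and unmarked cells overlapped for both members. With the cells of a library cut into 4 equal classes by depth, S100A6 was at 11596 CPM in the shallowest class of S and 8255 in the deepest, at 17257 and 12761 CPM in RV, 4866 and 5683 in RVC, and 1380 and 1547 in RVT. Barcodes removed for too few genes or too many mitochondrial UMIs held S100A6 at 2487 CPM in RVC (959 barcodes) and 745 CPM in RVT (1114 barcodes), against 5692 and 1598 CPM in kept cells, and no S100B UMI in either library. The gene least like S100A2 across thinned RVC cells was UTS2, named after its values were seen, with a Pearson correlation of -0.2625. Of the markers of other cells that had a UMI, LYZ, EPCAM, PECAM1, COL1A1 and ALB stood at 3.54 CPM or below in every library.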
